A study of Mus musculus with 8 samples.

Results

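Heparan sulfate proteoglycans were followed by RNA sequencing in cells isolated as microvascular endothelial cells (ECs). The cells came from mice with and without a knockout of LRP1 directed at endothelium. LRP1 is a receptor that takes up many ligands which also bind heparan sulfate. The members are 10 genes chosen by name as carriers of these chains and co-receptors for LRP1 ligands, namely the syndecans Sdc1, Sdc2, Sdc3 and Sdc4, the glypicans Gpc1, Gpc3, Gpc4 and Gpc6, and the basement membrane proteoglycans Hspg2 (perlecan) and Agrn (agrin). They were 10 of the 22520 genes in the deposited table. The WT group (4 libraries) came from LRP1 f/f; Cdh5-CreER -/- littermates, and the LRP1 KO group (4 libraries) from LRP1 f/f; Cdh5-CreER +/- mice, in which a tamoxifen-inducible Cre is driven by the promoter of the endothelial gene Cdh5. Both groups thus carried the floxed Lrp1 allele, and all mice were at postnatal day 14. Their strain is given as C57BL/6, whereas the paper's name for the floxed Lrp1 line denotes a mixed background. The labels call each library a mix of cells from heart, liver and lung. The paper treats ECs of heart and lung apart from those of liver. Cells were captured with antibody to PECAM-1 on magnetic beads, and the labels do not say whether each library came from a separate animal, so the p-values below measure the spread between libraries, which may be technical.

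Heparan sulfate is a long, sulfated sugar chain built in the Golgi on serines that are followed by glycine. Syndecans carry it on an outer domain with a membrane span and a short cytoplasmic tail, glypicans are tied to the outer leaflet by a lipid anchor, and perlecan and agrin are secreted into basement membranes. The chains hold growth factors, lipases, lipoproteins and protease inhibitors at the cell surface, and in vessels they form part of the glycocalyx and of the basement membrane under the endothelium.

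The ends of the syndecan coding sequences are shown because this stretch is what the 4 transmembrane members share. Each is the last 33 codons with the stop codon (99 bases, GENCODE M21 coding sequence on GRCm38, coding strand), and the capitals mark the final 4 codons before the stop, which encode the peptide that binds PDZ domain proteins such as syntenin. The stretches lie at chr12:8791709-8791807 (plus strand, Sdc1), chr15:33032442-33032540 (plus, Sdc2), chr4:130822711-130822809 (plus, Sdc3) and chr2:164426086-164426184 (minus, Sdc4).
Sdc1: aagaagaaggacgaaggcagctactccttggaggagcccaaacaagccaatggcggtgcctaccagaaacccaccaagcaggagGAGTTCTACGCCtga
Sdc2: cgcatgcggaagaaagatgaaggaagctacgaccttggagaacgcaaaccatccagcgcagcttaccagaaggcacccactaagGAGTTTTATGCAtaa
Sdc3: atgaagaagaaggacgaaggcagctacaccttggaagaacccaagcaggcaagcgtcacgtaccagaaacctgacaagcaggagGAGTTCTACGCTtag
Sdc4: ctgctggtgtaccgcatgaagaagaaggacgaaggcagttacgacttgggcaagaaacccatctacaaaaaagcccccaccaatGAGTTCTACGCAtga

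Of the 12 bases in capitals, 9 were the same in the 4 genes, and the 4 codons encode the same amino acids in each. The outer parts differ more in size: the coding sequences hold 311 codons (Sdc1), 202 (Sdc2), 442 (Sdc3) and 198 (Sdc4), with 5, 3, 8 and 3 serine-glycine codon pairs. The syndecan genes span chr12:8771323-8793715 (Sdc1), chr15:32920723-33034935 (Sdc2), chr4:130792537-130826319 (Sdc3) and chr2:164424247-164443887 (Sdc4). Of the others, Hspg2 (chr4:137468769-137570630) and Agrn (chr4:156165290-156197488) lie on the same chromosome as Sdc3, Gpc1 is at chr1:92831645-92860779 and Gpc6 at chr14:116925315-117976544 (GRCm38).

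For Gpc3 and Gpc4, which lie side by side on chromosome X and gave the most divergent results, the coding stretch densest in serine-glycine codon pairs is shown, with those pairs in capitals. The Gpc3 stretch is codons 490 to 513 at chrX:52314868-52314939 (minus strand, 72 bases). The Gpc4 stretch is codons 490 to 505, 48 coding bases split over an intron within chrX:52053680-52053817 (minus strand).
Gpc3: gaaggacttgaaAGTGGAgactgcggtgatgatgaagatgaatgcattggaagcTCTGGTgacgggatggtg
Gpc4: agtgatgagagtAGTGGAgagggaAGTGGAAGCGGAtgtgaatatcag

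The Gpc3 stretch holds 2 of the 2 serine-glycine pairs in its 579 codons, and the Gpc4 stretch 3 of the 4 pairs in its 557 codons.

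Values are FPKM, read fragments divided by transcript length and by the size of the library, so that levels of different genes may be compared. The authors had made all libraries nearly alike in distribution, with sums of 503571 to 504112, and the sequencing depth behind a value is therefore unknown. Lrp1, the targeted gene, measured 113, 140, 103 and 124 FPKM across WT libraries and 3.45, 5.20, 2.79 and 7.72 FPKM across LRP1 KO, a mean of 3.99% of WT with no overlap. Fold changes are differences in mean log2(FPKM + 1), LRP1 KO minus WT, from a limma fit over the 11389 genes that reached 1 FPKM in at least 4 libraries, with Benjamini-Hochberg adjustment over them, and a gene was called at an adjusted p under 0.05.

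The labelled cell type was checked against marker genes, and endothelial markers were low beside those of mesothelial cells and fibroblasts. Summed over 18 endothelial markers the level was 174 to 189 FPKM in WT and 182 to 632 FPKM in LRP1 KO, with Pecam1 at 6.80 to 8.76 FPKM in WT, whereas 6 mesothelial markers summed to 2269 to 2632 FPKM in WT and 1977 to 2219 FPKM in LRP1 KO. Markers of macrophages (13 genes) summed to 89.9 to 113 and 230 to 560 FPKM, those of mural cells (10 genes) to 670 to 836 and 1040 to 1627 FPKM, and those of fibroblasts (12 genes) to 2494 to 3685 and 2134 to 3344 FPKM, in WT and LRP1 KO respectively. Of the markers tested, 9 of 11 macrophage, 4 of 8 mural, 1 of 16 endothelial and 1 of 11 fibroblast genes were called higher. Called lower were 2 of 6 mesothelial, 2 of 11 fibroblast and 1 of 3 epithelial genes. By sign alone, 16 of 16 endothelial, 10 of 11 macrophage and 7 of 8 mural markers were higher. Lower by sign were 10 of 11 fibroblast, 5 of 6 mesothelial and 3 of 3 epithelial markers. None of the endothelial, macrophage, fibroblast, mural or mesothelial markers was listed at 0 in every library, and the hepatocyte markers summed to at most 1.44 FPKM. Epithelial markers summed to 87.6 to 168 FPKM in WT and 94.5 to 112 FPKM in LRP1 KO. Cardiomyocyte markers summed to 100 to 155 FPKM in WT and 86.9 to 120 FPKM in LRP1 KO. The epithelial sum was mostly Krt8 and Krt18 (WT means 57.6 and 63.8 FPKM), with Scgb1a1 at 2.89 FPKM and the rest at most 0.408 FPKM. The cardiomyocyte sum was mostly Tnnt2 (WT mean 123.6 FPKM), with Nppa at 4.58 FPKM and the rest at most 1.15 FPKM. LRP1 KO library 4 stood apart from the other LRP1 KO libraries: on the first principal component, which held 60.8% of the variance, it scored 0.102, where LRP1 KO libraries 1 to 3 scored 17.2 to 27.3 and WT libraries -24.1 to -12.9, and its endothelial sum of 182 FPKM was at the WT level. The sum of 4 Y-linked genes was near 0 in WT library 4 (0.112 FPKM) and LRP1 KO library 2 (0.0955 FPKM), and the labels give no sex. In WT libraries 1 to 3 that sum was 21.6 to 33.8 FPKM, and in LRP1 KO library 4 it was 22.7 FPKM. In LRP1 KO libraries 1 and 3 it was 54.9 and 63.9 FPKM. In such bulk samples fewer cells of a type and less RNA per cell cannot be told apart, and the part of these differences in the results below was not tested. The mean Lrp1 level in LRP1 KO was 3.99% of WT, while endothelial markers were low beside mesothelial and fibroblast ones. Which cells lost Lrp1 was not tested.

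**Figure D1:**
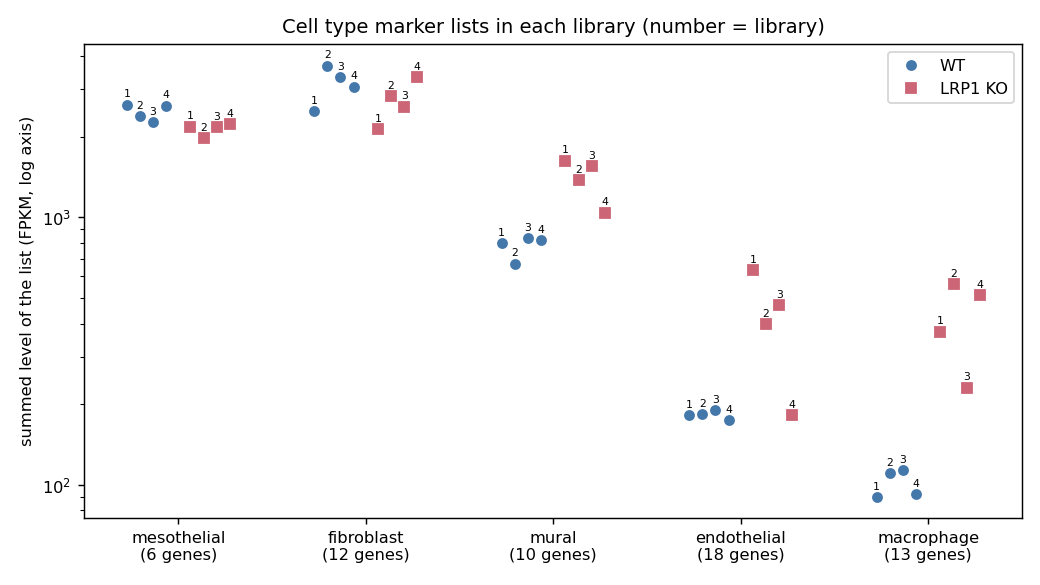
Summed FPKM (log axis) of 5 cell type marker lists in each of the 8 libraries, with WT as circles, LRP1 KO as squares and the library number above each point. Macrophage and mural sums were higher and mesothelial sums lower in LRP1 KO without overlap between the groups, while LRP1 KO library 4, at 182 FPKM, lay within the WT range of 174 to 189 FPKM for the endothelial sum.

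All 10 members passed the filter on low values. Of them, 4 rose (Sdc1, Sdc2, Sdc3 and Gpc4), 1 fell (Gpc3) and 5 were not called (Sdc4, Gpc1, Gpc6, Hspg2 and Agrn). Over all tested genes 13.6% were called, 6.27% higher and 7.31% lower. The groups did not overlap for the 5 called members, 4 higher and 1 lower in LRP1 KO, where 19.6% of all tested genes did not overlap, 8.84% higher and 10.7% lower. Left out singly, the libraries gave 2 to 5 called members: 2 without WT library 2 or LRP1 KO library 2, 3 without LRP1 KO library 1 or 3, 4 without WT library 3 or 4, and 5 without WT library 1 or LRP1 KO library 4. Calls over all tested genes also moved in these fits. With WT libraries 1 to 4 dropped in turn, 841 of 11324, 502 of 11322, 914 of 11312 and 989 of 11321 genes were called. For the LRP1 KO libraries in the same order, these were 478 of 11289, 433 of 11300, 468 of 11287 and 2959 of 11297. Without both libraries whose Y-linked genes were near 0, limma called 0 members and 100 of 11213 tested genes. At an unadjusted limma p under 0.05 there were 5 members, and that share was not counted over all genes. The members' median log2 fold change was 0.21, beside -0.01 over all tested genes, and the median size without sign was 0.33 beside 0.14. At the study's additional threshold of a 2-fold change Gpc3 alone passed among the members, and 1.62% of all tested genes passed it.

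**Figure D2:**
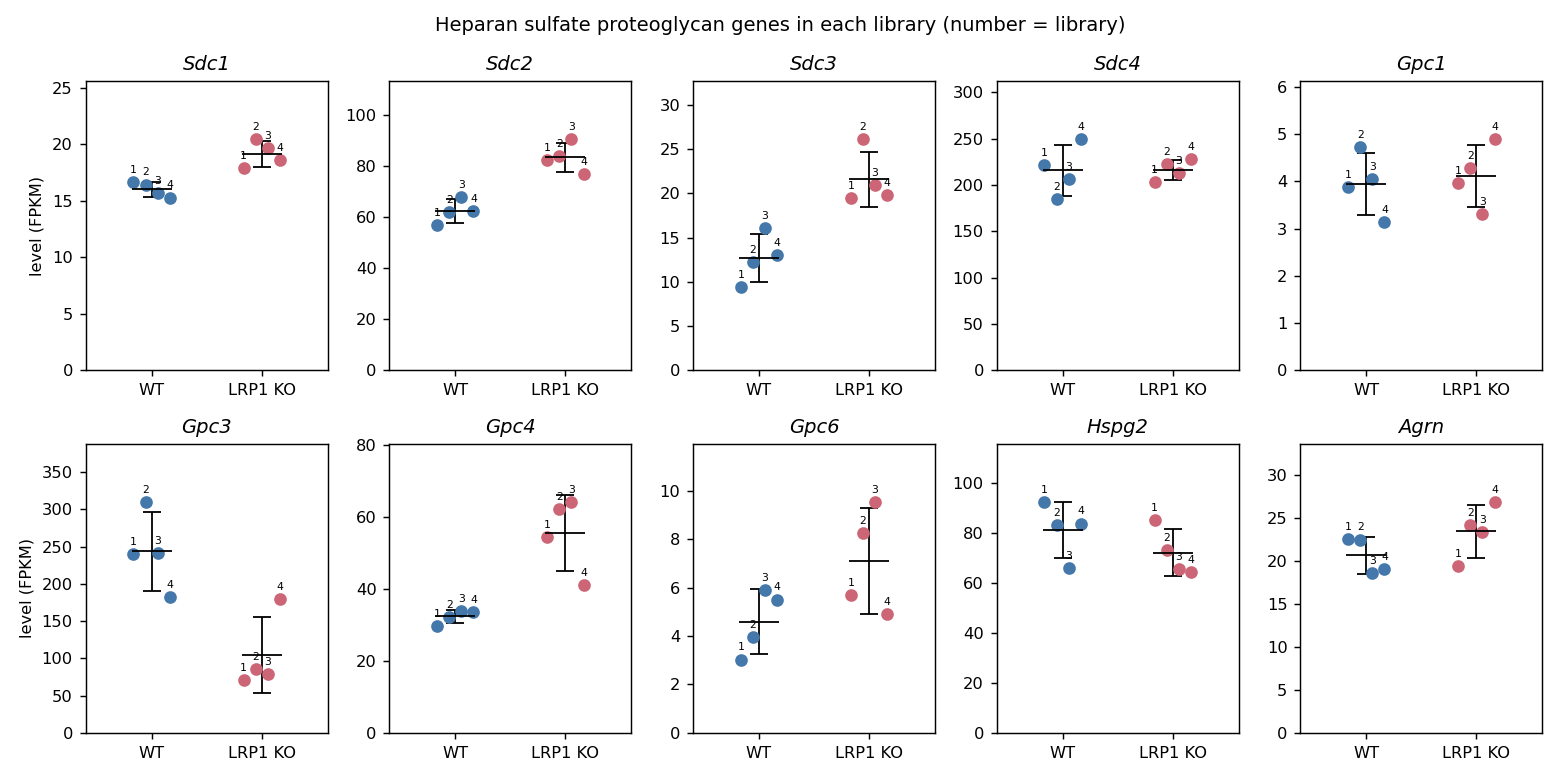
FPKM of each of the 10 members in each library (numbered points, one panel per gene, axes from 0), with the group mean and SD as bars. The groups did not overlap for Sdc1, Sdc2, Sdc3, Gpc3 and Gpc4, and Gpc3 in LRP1 KO library 4 (180.1 FPKM) sat far above the other LRP1 KO libraries.

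The syndecans link extracellular ligands to the cytoskeleton and to endocytosis, and 3 of the 4 rose while the most abundant, Sdc4, was not called. Sdc2, the syndecan known from fibroblasts and vessels, measured 56.8, 62.0, 67.9 and 62.4 FPKM across WT libraries 1 to 4, compared with 82.4, 83.7, 90.5 and 76.8 FPKM across the LRP1 KO libraries 1 to 4. Every LRP1 KO library was higher than every WT library. The log2 fold change was 0.42 (SE 0.07, 95% confidence interval 0.26 to 0.57), with an adjusted p of 0.00864 in limma and the smallest p of 0.0286 that an exact two-sided permutation test allows over the 70 ways to choose 4 of 8 libraries. Sdc2 was called whichever single library was left out, with an adjusted p of at most 0.0371. Without the 2 libraries whose Y-linked genes were near 0 its log2 fold change was 0.41, with an adjusted p of 0.0809.

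Sdc3, the largest syndecan by coding length and best known from nerve and muscle, had the widest relative rise of the syndecans. It measured 9.36, 12.3, 16.1 and 13.0 FPKM across WT libraries, compared with 19.5, 26.2, 20.9 and 19.8 FPKM across LRP1 KO, so the lowest LRP1 KO library was above the highest WT library. The LRP1 KO mean was 170% of the WT mean (12.7 ± 2.75 and 21.6 ± 3.10 FPKM, mean ± SD, n = 4 each). The log2 fold change was 0.74 (SE 0.15, 95% confidence interval 0.40 to 1.07), with a limma adjusted p of 0.0162 and an exact permutation p of 0.0286. The call was lost without WT library 2 (adjusted p 0.0523) or without LRP1 KO library 2 (adjusted p 0.0517), and without both libraries that had Y-linked genes near 0 the log2 fold change was 0.67 with an adjusted p of 0.0947.

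Sdc1, the main syndecan of epithelia, which clears lipoproteins in the liver, changed least among the called members. WT libraries held 16.7, 16.5, 15.7 and 15.3 FPKM and LRP1 KO libraries 17.9, 20.5, 19.7 and 18.7 FPKM. The groups did not overlap, but the gap between them was only from 16.7 to 17.9 FPKM. The log2 fold change of Sdc1 was 0.25 (SE 0.06, 95% confidence interval 0.11 to 0.38), with a limma adjusted p of 0.0313 and an exact permutation p of 0.0286. It was no longer called when any of 6 libraries was left out singly (adjusted p 0.0531 to 0.0969), namely WT libraries 2, 3 and 4 and LRP1 KO libraries 1, 2 and 3, and without the libraries with Y-linked genes near 0 it was 0.19 with an adjusted p of 0.165.

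Sdc4, a ubiquitous syndecan of focal adhesions, was by far the most abundant of the 4. It measured 221, 185, 207 and 250 FPKM across WT libraries, compared with 203, 222, 213 and 228 FPKM across LRP1 KO. The LRP1 KO values lay within the WT range. The log2 fold change was 0.01 (SE 0.09), and the 95% confidence interval ran from -0.19 to 0.21 (limma adjusted p 0.939, exact permutation p 0.857). Sdc4 made up 70.2% ± 3.35 of the summed syndecan FPKM in WT and 63.5% ± 1.97 in LRP1 KO (SD, n = 4 each).

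Glypicans present growth factors such as Wnt, hedgehog and FGF ligands to their receptors, and among them Gpc3 fell while its chromosomal neighbour Gpc4 rose. Gpc3, which restrains growth and hedgehog signaling and also binds LRP1 in that setting, measured 240.3, 310.6, 241.2 and 182.3 FPKM across WT libraries, compared with 71.6, 85.8, 78.6 and 180.1 FPKM across LRP1 KO. LRP1 KO libraries 1 to 3 were well below every WT library, whereas LRP1 KO library 4 was just under the lowest WT library, WT library 4. The LRP1 KO mean was 42.7% of the WT mean, 104 ± 51.0 against 243.6 ± 52.5 FPKM (SD, n = 4 each). The log2 fold change of Gpc3 was -1.30 (SE 0.28, 95% confidence interval -1.92 to -0.68), with a limma adjusted p of 0.0199 and an exact permutation p of 0.0286. Without LRP1 KO library 4 it was -1.60 (adjusted p 0.000471), while the call was lost without WT library 2 (-1.17, adjusted p 0.0639) and without LRP1 KO library 1, 2 or 3 (adjusted p 0.0580, 0.0616 and 0.0602). Without the libraries with Y-linked genes near 0 the log2 fold change was -1.37 with an adjusted p of 0.0872.

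Gpc4, a glypican of FGF and insulin signaling, measured 29.8, 32.1, 34.0 and 33.5 FPKM across WT libraries, compared with 54.5, 62.1, 64.3 and 41.0 FPKM across LRP1 KO. All LRP1 KO libraries exceeded the WT libraries, and LRP1 KO library 4 was again nearest to them. The LRP1 KO mean of Gpc4 was 171% of the WT mean, with a log2 fold change of 0.74 (SE 0.13, 95% confidence interval 0.45 to 1.03), a limma adjusted p of 0.00961 and an exact permutation p of 0.0286. The call held without any 1 library (log2 fold change 0.66 to 0.88, adjusted p at most 0.0392), and without the libraries with Y-linked genes near 0 the change was 0.70 with an adjusted p of 0.0780.

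The ratio of Gpc3 to Gpc4 FPKM was 8.07, 9.68, 7.10 and 5.44 in WT and 1.31, 1.38, 1.22 and 4.40 in LRP1 KO. Gpc3 thus exceeded Gpc4 in every library, by the least in LRP1 KO libraries 1 to 3. Of the summed FPKM of the 4 glypicans, Gpc4 made up 9.13% to 14.9% in WT, 38.7% to 41.3% in LRP1 KO libraries 1 to 3 and 17.7% in LRP1 KO library 4.

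The gene bodies of both glypicans lie on the minus strand of chromosome X (GENCODE M21, GRCm38), Gpc4 at chrX:52053021-52165252 and Gpc3 at chrX:52272426-52613950, with 107173 bases between them. The nearest tested gene on the other side of Gpc4, 371164 bases away and on the same strand, was Hs6st2 (chrX:51387212-51681856), which adds sulfate to heparan sulfate chains. Hs6st2 measured 2.07, 1.77, 2.69 and 2.80 FPKM across WT libraries, compared with 8.16, 5.54, 8.30 and 4.36 FPKM across LRP1 KO, without overlap, and rose by a log2 fold change of 1.16 (SE 0.19, limma adjusted p 0.00759). Within 1000000 bases of the pair, a window chosen after the values were seen, 8 other genes were tested. Of these 2 were called, where 13.6% of all tested genes were. Hs6st2 and Hprt, a purine salvage enzyme (0.37, limma adjusted p 0.0148), rose, and the log2 fold changes of the other 6 ran from -0.37 to 0.01 without a call.

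Gpc6 and Gpc1 were the least abundant members. Gpc6 measured 3.03, 3.96, 5.88 and 5.51 FPKM across WT libraries, compared with 5.67, 8.24, 9.55 and 4.89 FPKM across LRP1 KO, with LRP1 KO libraries 1 and 4 inside the WT range. Its log2 fold change was 0.53 (SE 0.22, 95% confidence interval 0.03 to 1.02), and it did not pass the test (limma adjusted p 0.130, exact permutation p 0.143). Without LRP1 KO library 4 the value was 0.66 with an adjusted p of 0.0504, and the groups still overlapped.

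Gpc1, the main vascular glypican, measured 3.87, 4.72, 4.06 and 3.13 FPKM across WT libraries, compared with 3.97, 4.28, 3.31 and 4.90 FPKM across LRP1 KO. The groups overlapped almost fully, with a log2 fold change of 0.05 (SE 0.12), a 95% confidence interval of -0.23 to 0.33 and a limma adjusted p of 0.808.

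**Figure D3:**
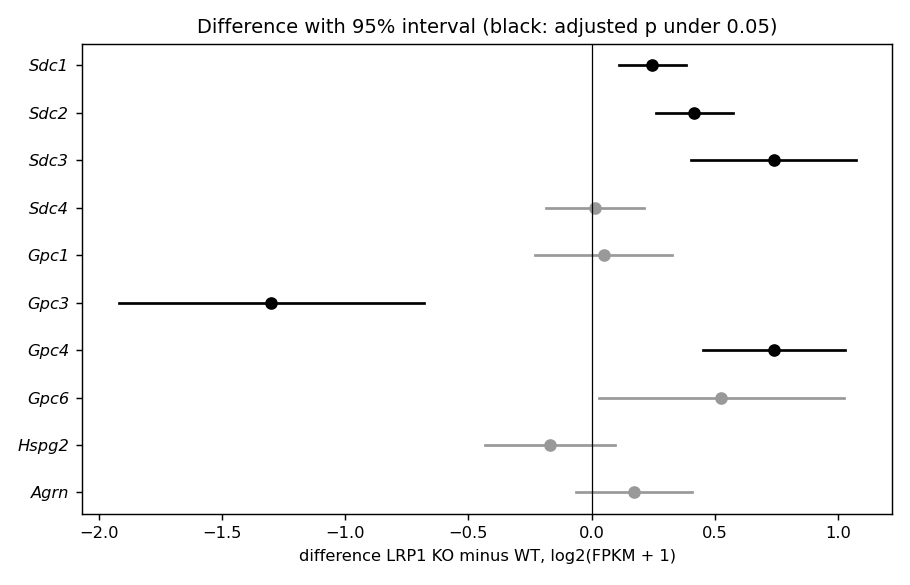
Difference in mean log2(FPKM + 1), LRP1 KO minus WT, for each member with its 95% confidence interval from limma (black for called members, grey for the others). Gpc3 at -1.30 lies left of 0, Sdc1, Sdc2, Sdc3 and Gpc4 lie right of it at 0.25 to 0.74, and the other 5 members were not called.

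The basement membrane members were not called. Hspg2 encodes perlecan, a very large proteoglycan whose coding sequence holds 4383 codons, and it measured 92.6, 83.3, 65.9 and 83.8 FPKM across WT libraries, compared with 85.1, 73.4, 65.7 and 64.4 FPKM across LRP1 KO. The ranges overlapped, with a log2 fold change of -0.17 (95% confidence interval -0.43 to 0.09, limma adjusted p 0.332). Agrn encodes agrin, which clusters receptors at the neuromuscular synapse and anchors laminin to cells, and it measured 22.6, 22.5, 18.6 and 19.1 FPKM across WT libraries, compared with 19.5, 24.2, 23.4 and 27.0 FPKM across LRP1 KO. LRP1 KO libraries 2, 3 and 4 were above the WT range, but the change of 0.17 (95% confidence interval -0.06 to 0.40) had a limma adjusted p of 0.273.

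In level, the WT order was Gpc3 (243.6 ± 52.5 FPKM), Sdc4 (215.7 ± 27.2), Hspg2 (81.4 ± 11.2), Sdc2 (62.3 ± 4.54), Gpc4 (32.3 ± 1.90), Agrn (20.7 ± 2.14), Sdc1 (16.0 ± 0.640), Sdc3 (12.7 ± 2.75), Gpc6 (4.59 ± 1.33) and Gpc1 (3.95 ± 0.654), each a mean ± SD over 4 libraries. The neighbours Gpc3 and Sdc4, Hspg2 and Sdc2, Sdc1 and Sdc3, and Gpc6 and Gpc1 overlapped across libraries. In LRP1 KO, Sdc4 (216.4 ± 10.9 FPKM) stood first, above Gpc3, and Gpc3, Sdc2 and Hspg2 followed with overlapping ranges.

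The summed FPKM of the 10 members was 696, 733, 676 and 668 in WT and 563, 611, 589 and 665 in LRP1 KO. The LRP1 KO sums were below every WT sum, with LRP1 KO library 4 only just so. Syndecans made up 44.4% ± 5.50 of the WT sum and 56.3% ± 3.16 of the LRP1 KO sum, glypicans 40.9% ± 5.94 and 27.9% ± 4.67, and Hspg2 with Agrn 14.7% ± 1.71 and 15.9% ± 2.03 (SD, n = 4 each). Gpc3 and Sdc4 together held 66.2% ± 1.20 of the WT sum and 52.5% ± 5.91 of the LRP1 KO sum. These shares describe mRNA levels, and no test compared the groups in sums or shares over the members.

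**Figure D4:**
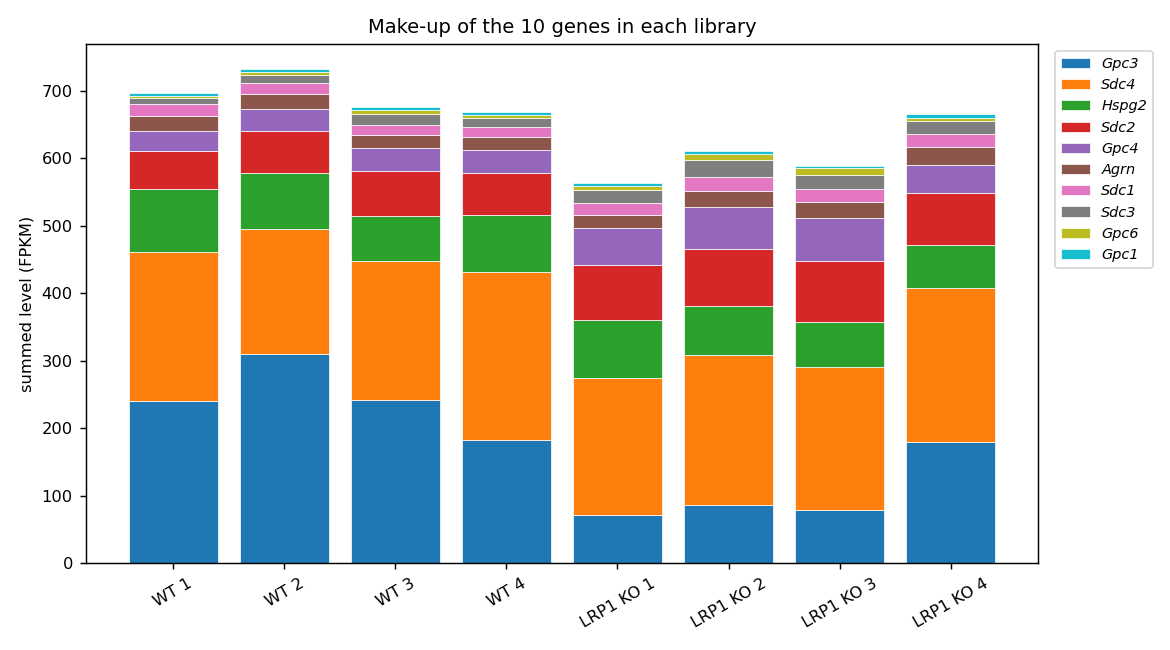
Stacked FPKM of the 10 members in each library (bars from 0, one bar per library, one colour per gene). Gpc3 is the lowest segment, smallest in LRP1 KO libraries 1 to 3 and, at 180.1 FPKM, just under the lowest WT library in LRP1 KO library 4, whose total of 665 FPKM is close to the lowest WT total of 668 FPKM.

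The rest of the pathway was examined in 9 lists of 97 genes in all, 75 of them tested. Of these, 16 were called (21.3%, beside 13.6% of all tested genes). The chain-building list, which makes the sugar linker and lengthens the chain, had 2 of 11 tested genes higher and 1 lower, with a median log2 fold change of -0.04. Ext1, a subunit of the chain polymerase, measured 25.5, 25.1, 29.4 and 28.3 FPKM across WT libraries, compared with 45.0, 40.9, 44.6 and 36.3 FPKM across LRP1 KO. Each LRP1 KO library was above the WT range, with a log2 fold change of 0.60 (limma adjusted p 0.00382). Its partner Ext2 stood at 60.3 and 58.6 FPKM (means, adjusted p 0.617). Fam20b, the kinase that phosphorylates the linker xylose, rose from a mean of 10.8 to 13.1 FPKM (0.26, adjusted p 0.0286), and Extl1, a related transferase, fell from 3.29 to 1.29 FPKM (-0.93, adjusted p 0.00883).

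Among the sulfotransferases and the epimerase, 2 of 7 tested genes rose and 1 fell, with a median of -0.15. Hs6st2 (above) rose together with Glce, the epimerase that turns glucuronic into iduronic acid (mean 6.91 to 9.05 FPKM, 0.35, limma adjusted p 0.0287, but 0.0503 with no filter on low values). Hs3st1, which makes the 3-O-sulfated site that antithrombin binds, fell from 15.3 to 10.8 FPKM (-0.48, adjusted p 0.0229). Ndst1, which starts sulfation, stood at 17.2 and 18.3 FPKM (adjusted p 0.536), and Hs2st1 at 21.5 and 17.6 FPKM (adjusted p 0.0535).

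No gene was called among 3 tested for extracellular editing (median 0.22), 8 for lysosomal breakdown (median -0.12) and 12 of the competing chondroitin branch (median 0.07). The most abundant of the editing and chondroitin lists were Sulf1, an extracellular 6-O-sulfatase (50.1 and 58.8 FPKM, limma adjusted p 0.194) and Chst12, a chondroitin sulfotransferase (50.8 and 46.3 FPKM, adjusted p 0.171). At an unadjusted limma p under 0.05 there were 1, 3 and 2 genes in these lists. Without LRP1 KO library 4 the limma fit called 1 (Sulf2), 2 (Naglu and Sgsh) and 1 (Chst15), genes named after their values were seen. That fit called 2959 of 11297 tested genes. A missed threshold here does not show that the lists were unaltered.

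Of the other chain carriers, 2 of 6 tested rose and 1 fell (median 0.05). Cd44, a hyaluronan receptor that carries heparan sulfate in some splice forms, rose from 10.4 to 23.6 FPKM (1.08, limma adjusted p 0.0170), Srgn, the serglycin of secretory granules in blood cells, rose from 3.20 to 5.96 FPKM (0.71, adjusted p 0.00831), and the glypican Gpc2 fell from 3.86 to 2.28 FPKM (-0.57, adjusted p 0.0182). Both Cd44 and Srgn are expressed in macrophages, whose markers summed to 230 to 560 FPKM in LRP1 KO and 89.9 to 113 FPKM in WT, and the part of that difference was not tested. Among partners of the syndecan tail 1 of 6 rose, the actin crosslinker Actn4 (157.5 to 207 FPKM, 0.40, adjusted p 0.0436, but 0.0791 with no filter on low values and 0.0516 with no variance trend), while Sdcbp, which encodes syntenin, a binder of the peptide that the 4 codons in capitals encode, stood at 97.8 and 124 FPKM (adjusted p 0.0675). Among partners of perlecan and agrin 1 of 8 was called, the basement membrane linker Nid2, which fell from 322 to 203.5 FPKM (-0.67, adjusted p 0.0203).

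Ligands that bind both heparan sulfate and LRP1 had 3 of 14 tested genes higher and 2 lower, with a median of -0.11. The collagenase Mmp13 (3.46 to 7.59 FPKM, 0.96, limma adjusted p 0.0153) and the matricellular protein Ctgf (298 to 448 FPKM, 0.59, adjusted p 0.0335) rose. The protease inhibitor Serpine2 rose from 17.2 to 24.3 FPKM (0.49, adjusted p 0.0190). Lpl, the lipase held on endothelial heparan sulfate, fell from 208 to 120 FPKM (-0.81, adjusted p 0.0261), and the growth factor Mdk fell from 57.0 to 32.8 FPKM (-0.81, adjusted p 0.0297). For Ctgf, Lpl and Nid2 the groups overlapped. The count of ligands depended on the setting: without LRP1 KO library 4, and also with array weights, 3 were higher and 5 lower, whereas with no filter on low values 2 were called, both higher, Ctgf, Lpl and Mdk then having limma adjusted p-values of 0.0697, 0.0569 and 0.0634. Without WT library 2 or LRP1 KO library 1, 2 or 3, 1 ligand was called, and without WT library 1 there were 3. Calls over all tested genes moved too, to 2959 of 11297 without LRP1 KO library 4 and 3003 of 11389 with array weights. With no filter on low values they were 1163 of 18026. With WT library 1 or 2 dropped they were 841 of 11324 and 502 of 11322. With LRP1 KO library 1, 2 or 3 dropped they were 478 of 11289, 433 of 11300 and 468 of 11287.

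Of the 16 called pathway genes, 5 were called whichever library was left out (Srgn, Extl1, Ext1, Hs6st2 and Mmp13), and the other 11 lost the call without at least 1 library, with adjusted p-values of up to 0.120. For Gpc2 that was WT library 2, and for Cd44 and Serpine2 WT library 2 or LRP1 KO library 1, 2 or 3. Each of the other 8 lost it without any of LRP1 KO libraries 1, 2 and 3 and without WT library 2, and also without WT library 1 (Glce, Ctgf and Mdk), WT library 3 (Nid2), WT libraries 1 and 3 (Fam20b and Hs3st1), 1 and 4 (Actn4) or 3 and 4 (Lpl), each left out singly. Without LRP1 KO library 4, limma called 29 pathway genes rather than 16, and 2959 of 11297 tested genes rather than 1547 of 11389. Among the ligands 8 rather than 5 were called, and for chain building 5 rather than 3. There were 4 rather than 3 for the other carriers and likewise for the sulfotransferases. The syndecan tail partners had 2 rather than 1, as did the partners of perlecan and agrin. Without the 2 libraries with Y-linked genes near 0, limma called 0 of the 10 members and 0 of the 75 tested pathway genes. Of them 5 and 26 were at an unadjusted limma p under 0.05, and 100 of all 11213 tested genes were called.

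**Figure D5:**
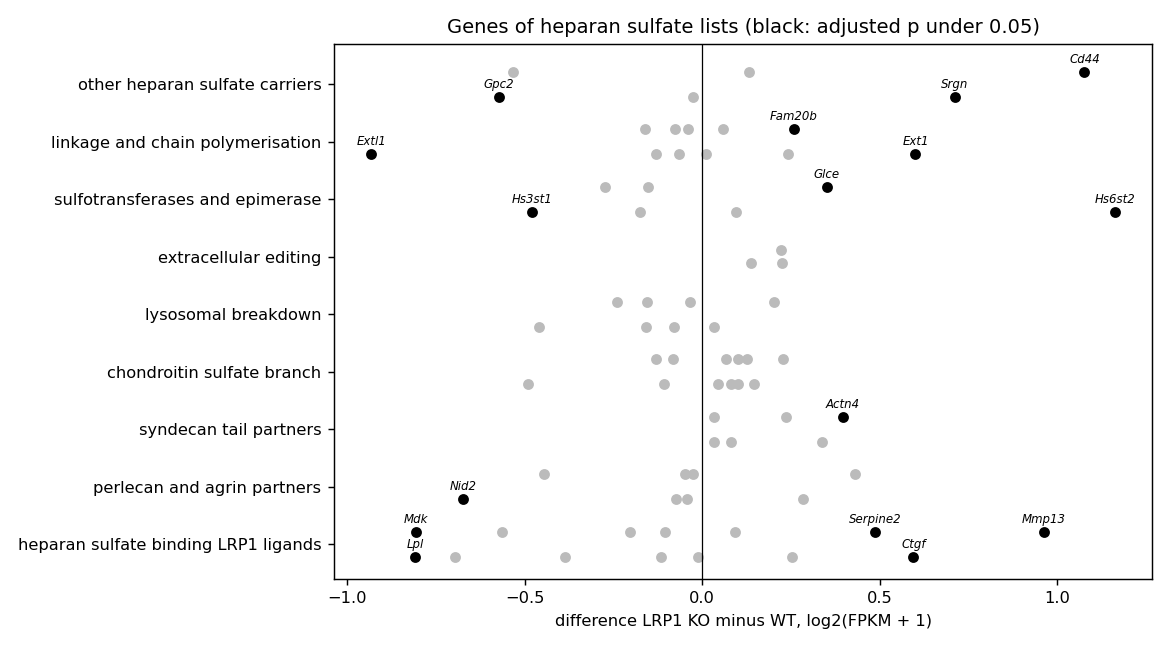
Log2 fold change, LRP1 KO minus WT on log2(FPKM + 1), of each tested gene of the 9 pathway lists (points, one row per list, points offset up and down for legibility), with called genes in black and named. The called rises reach 1.16 (Hs6st2) and 1.08 (Cd44), and the lowest called fall is -0.93 (Extl1).

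By Pearson correlation of log2(FPKM + 1) over the 8 libraries, the genes most like each called member were Marcks (0.968), Runx1 (0.963) and Ifi35 (0.960) for Sdc1, Pmepa1 (0.994), Ank2 (0.986) and Serpinb9 (0.984) for Sdc2, and P4ha1 (0.980), Frzb (0.979) and Cblb (0.976) for Sdc3. For Gpc3 they were Josd1 (0.999), Rasl10b (0.998) and Sall2 (0.997), and for Gpc4 they were Pip4k2a (0.990), Fam129b (0.988) and Wars (0.988). These correlations are a description over 8 libraries that share the group difference and the place of LRP1 KO library 4, from a search of 11389 genes.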

How the data were processed

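The deposited table holds FPKM values for 22520 genes in 8 libraries. How the authors made it is not fully given in the sources used here: the processing notes name TopHat2, Cufflinks and mm10, whereas the study's methods describe STAR and featureCounts. The unit was inferred from the values, and TPM cannot be told apart from it. The authors had made the libraries nearly identical in distribution (sorted values differed by a median of 0.576%), so depth is unknown, and a change shared by most genes would be hidden.

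Groups came from the sample titles. Values were analysed as log2(FPKM + 1), which understates changes of low genes, in genes of at least 1 FPKM in at least 4 libraries (11389), with limma 3.58.1 in R 4.3.3 and group as the only term. P-values were Benjamini-Hochberg adjusted over all tested genes, and single members also had an exact permutation test (SciPy 1.17.1). Positions and coding sequences were taken from GENCODE M21 on GRCm38, by identifier. The members, lists and named genes were chosen with earlier results of these data known. Named were all members, Lrp1 and the 3 most similar genes. Of each list up to 3 called rises, 3 called falls and the most abundant uncalled gene were named. Serpine2, Sdcbp, Ndst1, Hprt, the single cell type markers and the Y-linked genes were named after their values were seen. Alternatives were other pseudocounts and filters, rescaling, no variance trend, array weights, a replicate block and leaving out libraries. Some genes of the lists are not reported here and were left out of the list counts.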

Additional observations from a re-analysis of the deposited data

Results flagged for a closer look

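LRP1 KO library 4 lay far from the other LRP1 KO libraries in Gpc3. Its 180.1 FPKM was separated from the next library by 0.869 of the group's whole range, above the 95% critical value of Dixon's test for 4 samples. The same library had a Gpc3 to Gpc4 ratio of 4.40 against 1.22 to 1.38 in the other LRP1 KO libraries, a gap of 0.950 of the range. These were 2 of 24 groups examined (each member, the sum of the members and this ratio, in WT and in LRP1 KO), and chance alone marks about 1 in 20. Both values rest on the same Gpc3 level and are not independent. In that library Lrp1 was at 7.72 FPKM, against 2.79 to 5.20 FPKM in the other LRP1 KO libraries and 103 to 140 FPKM in WT.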

How the results depend on the processing

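Depth is unknown, so precision rests on 4 libraries a group. With pseudocounts of 0.1 or 5, no filter, at least 5 FPKM in 4 libraries (which left Gpc1 untested), rescaling, no variance trend or array weights, 5 members were called in each, out of 5 as reported. Left out singly, libraries gave 2 to 5 members called, 433 to 2959 genes called (1547 as reported) and 5 to 29 of the pathway genes (16 as reported). Array weights called 3003 genes and 29 pathway genes. Chosen after seeing the data, leaving out both libraries with Y-linked genes near 0 called 0 members, 100 genes and 0 pathway genes, with 3 libraries a group. The log2 fold change of Sdc4 was -0.0598 with array weights and ran from -0.0586 to 0.0853 without 1 library. That of Gpc1 was -0.0529 without the libraries with Y-linked genes near 0 and ran from -0.0343 to 0.13 without 1 library. Neither gene was called in any of these. Settings that leave out libraries rest on fewer samples, and the cause of the other changes was not tested.

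A replicate block called 3 members, without Sdc1 (adjusted p 0.0617) and Gpc3 (adjusted p 0.0503), 1013 genes and 14 pathway genes: Fam20b (adjusted p 0.0703), Hs3st1 (0.0583), Ctgf (0.0547) and Mdk (0.0547) lost the call, and Tgfbr3 (0.0466) and Hs2st1 (0.0448) gained it. The numbers were not taken to pair the samples, since nothing in the labels says that they do and not every pair deviated together: deviations of same-numbered libraries correlated at 0.158, 0.141, 0.340 and -0.312, and 2 of 4 WT libraries correlated best with their own number.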
